A study of Mus musculus with 2 samples.

Results

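Neutrophils were examined among CD45+ leukocytes sorted from mouse melanomas and measured by droplet single-cell RNA sequencing. They were chosen by transcript counts. A cell counted as a neutrophil when it held 5 or more unique molecular identifiers (UMIs, that is, distinct captured transcripts) of *S100a8* plus *S100a9*, a UMI in at least 2 of *Cxcr2*, *Csf3r*, *G0s2*, *Mmp9*, *Hdc* and *Retnlg*, and none of *Csf1r*, *Fcgr1*, *Cd3e* or *Ncr1*. Of 9798 cells that passed the authors' filter, 668 met this rule, 281 of 5292 in the control library and 387 of 4506 in the NK-depleted library. Both libraries came from *Braf*-mutant, *Ptgs*-/- melanoma cells, which lack the COX enzymes of prostaglandin synthesis, grown for 4 days in C57BL/6 hosts that were 8 weeks old. The titles call the tumor cells knockout, while the genotype entry of both samples reads wildtype. Control hosts were untreated. NK-depleted hosts were given 200 µg of the anti-NK1.1 clone PK136 and 30 µg of antibody to asialo GM1 on days 0 and 2. Sorting followed pooling of the tumors within a group, each group gave 1 library, and parental melanoma cells were spiked into both. No difference below therefore has a replicate check or a test, and "higher" or "lower" refers to this pair of libraries. Ranges in parentheses after a value are its 95% interval, which holds counting error and nothing else.

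Neutrophils are short-lived granulocytes that leave the bone marrow under the guidance of CXCR2 and its chemokine ligands, which include CXCL1, CXCL2 and CXCL3, and survive on G-CSF received through CSF3R. They carry calprotectin, the S100A8 and S100A9 heterodimer, in their cytosol, and fill their granules in sequence during maturation, so transcripts of granule proteins mark young cells. Type I interferons and interferon-γ both act on them through STAT factors, whose complexes bind the interferon-stimulated response element (ISRE) and the gamma-activated sequence (GAS).

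Promoter stretches of *Isg15*, *Rsad2*, *Ifit3* and *Cxcl10* are shown because the interferon-stimulated genes, to which these 4 belong, are compared between the libraries further on. ISG15 is a ubiquitin-like modifier, RSAD2 (viperin) and IFIT3 are antiviral proteins, and CXCL10 attracts cells bearing CXCR3. Each stretch of 70 bases is written 5′ to 3′ on the strand of its gene, from RefSeq on GRCm38.p6, and capitals mark every match to GAAANNGAA, the core of the ISRE, read on either strand.
Isg15: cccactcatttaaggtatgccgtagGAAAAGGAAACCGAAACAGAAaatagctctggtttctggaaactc
Rsad2: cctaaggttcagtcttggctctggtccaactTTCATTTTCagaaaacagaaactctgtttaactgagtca
Ifit3: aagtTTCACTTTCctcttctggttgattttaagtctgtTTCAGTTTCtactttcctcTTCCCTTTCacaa
Cxcl10: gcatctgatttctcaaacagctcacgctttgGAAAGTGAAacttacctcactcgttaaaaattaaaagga
The *Isg15* stretch (chr4:156200852-156200921, minus strand) lies 103 to 34 bases before the start of the gene and holds 3 overlapping matches. The *Rsad2* stretch (chr12:26456533-26456602, minus strand) lies 150 to 81 bases before the start and holds 1 match, on the opposite strand. The *Ifit3* stretch (chr19:34583370-34583439, plus strand) lies 159 to 90 bases before the start, with 3 matches on the opposite strand. The *Cxcl10* stretch (chr5:92349064-92349133, minus strand) lies 244 to 175 bases before the start and holds 1 match.

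Across windows from 250 bases before to 50 bases after the start, a GAAANNGAA match was found in 2638 of 27025 genes, or 9.76%. It was found in 16 of the 28 genes of the type I interferon list that had a promoter in the table (57.1%), in 17 of 32 of the IFN-γ list (53.1%), in 5 of 19 chemokines and cytokines (26.3%) and in 4 of 40 respiratory chain genes (10.0%). TTCNNNGAA, the GAS letters, which read the same on both strands, were in 2582 of all windows (9.55%), in 5 of 28 type I genes (17.9%), 11 of 32 IFN-γ genes (34.4%), 1 of 19 chemokines and cytokines (5.26%) and 0 of 40 respiratory chain genes. A match to each motif was found in 384 genes (1.42%), and whether the matches overlapped was not examined. These matches describe the letters and were not tested for binding.

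Most marker genes outside the rule fit the name of these cells. *Il1r2*, a decoy receptor for IL-1, was seen in 84.0% of control and 93.3% of NK-depleted neutrophils, against 2.19% and 2.12% of T and B cells. *Trem1*, an activating receptor of granulocytes and monocytes, was seen in 62.3% and 67.7% (0.365% and 1.59% of T and B cells). *Slpi*, a secreted protease inhibitor, was seen in 53.7% and 53.5% (0.730% and 3.17%). The median depth was 1160 and 1298 UMIs in neutrophils and 2169.5 and 2391 UMIs in T and B cells, so the shares were higher in the shallower cells. All 24 marker genes outside the rule had a UMI in both libraries, although *Ly6g*, the surface protein by which neutrophils are usually stained, gave only 4 and 12 UMIs. Against the monocytes described below, *Wfdc17* was at 0.795 and 0.882 of their level and *Cd177* at 0.818 and 0.382. The other marker genes were above the monocyte level in both libraries. The azurophil granule genes *Mpo*, *Elane*, *Ctsg*, *Bpi* and *Ms4a3*, which are transcribed in promyelocytes, were at 0 in both libraries, which allows up to 3 UMIs each, and *Prtn3* gave 0 and 2 UMIs.

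Markers of other cell types were low but not absent. The 12 macrophage markers summed to 498 and 538 CPM (UMIs scaled to a fixed total per group of cells) in neutrophils, against 10069 and 7878 CPM in all other cells. *Csf1r* and *Fcgr1* among them are at 0 by the rule. The 9 monocyte markers summed to 642 and 473 CPM (5380 and 6724 CPM elsewhere), and the 11 dendritic cell markers to 1302 and 1414 CPM (13404 and 13285 CPM elsewhere). A UMI of this last list was seen in 37.4% and 27.6% of neutrophils, and 5 neutrophils per library held 73.0% and 88.0% of the UMIs of *Cd74*. B cell markers gave 49 and 65 UMIs, of which *Ighm* made up 38 and 65, T cell markers 9 and 8, eosinophil markers 25 and 39, platelet markers 16 and 6, all of *Pf4*, erythroid markers 2 and 2, and mast cell markers 1 and 0. Of the melanoma markers, *Pmel*, *Dct*, *Mlana*, *Tyrp1*, *Sox10* and *Tyr* were at 0 and *Mitf* gave 19 and 20 UMIs. NK cell markers gave 23 UMIs in control and 1 UMI in NK-depleted neutrophils, with 2 and 8 of the 9 genes at 0. NK cell, monocyte and platelet markers were thus higher in control neutrophils and macrophage and dendritic cell markers slightly lower, and their part in the results below was not tested.

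Neutrophils gave few UMIs per cell. Their depth ran from 528 to 9428 UMIs in control and from 504 to 10586 in NK-depleted cells, and all other cells had medians of 4365 and 5170 UMIs. They showed a median of 599 and 656 genes, and mitochondrial transcripts made up 0.385% and 0.485% of their UMIs at the median, against 3.13% and 3.75% in other cells. Their sums were 347277 and 539430 UMIs, or 1.40% and 2.32% of each library. Because the rule asks for a fixed number of UMIs, cells near its limits can fall on either side. *S100a8* plus *S100a9* ranged from 5 to 481 UMIs (median 31) and from 5 to 376 UMIs (median 36). Just inside were 33 and 37 neutrophils with 5 to 9 of these UMIs, and just outside were 14 and 15 cells with 3 or 4 that met all else. Exactly 2 of the other genes were seen in 18 and 16 neutrophils, and 11 and 5 cells had 1 and met all else. A UMI of an exclusion gene left out 60 cells in each library, 17.6% and 13.4% of those that passed the positive criteria, of which 54 and 55 had *Csf1r*.

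The first comparison concerned abundance. Neutrophils were 5.31% of control cells (281 of 5292, Clopper-Pearson interval 4.72 to 5.95) and 8.59% of NK-depleted cells (387 of 4506, 7.79 to 9.44). The share in the NK-depleted library was thus 1.62 times that in control (1.38 to 1.89), and the ratio of control to NK-depleted was 0.618 (0.528 to 0.723). Taking cells with NK transcripts out of the denominator, which left 4724 and 4505 cells, gave shares of 5.95% and 8.59% and a ratio of 0.692. Under the other settings the ratio ran from 0.555 to 0.655, and the share was lower in control each time. Shares of sorted cells say nothing of absolute numbers per tumor.

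**Figure D1:**
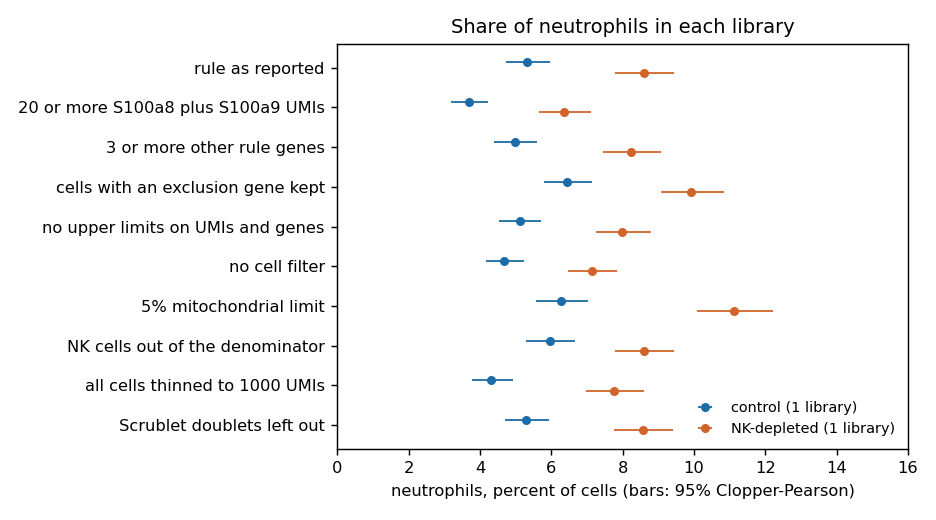
Neutrophils as a percent of cells (x axis) in the control and NK-depleted libraries, 1 library each, under the rule as reported and 9 other settings (y axis), with bars for the 95% Clopper-Pearson interval. In all 10 settings the control point lies left of the NK-depleted point, at 3.68% to 6.44% against 6.35% to 11.1%.

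The few neutrophils held a large part of some transcripts of the leukocytes. For genes outside the rule, 51.5% (48.3 to 54.6) of all *Acod1* UMIs of the control library and 62.7% (59.7 to 65.7) of the NK-depleted library lay in neutrophils. ACOD1 makes itaconate from an intermediate of the citric acid cycle. *Slpi* had 41.3% and 46.3% of its UMIs there, *Csf1*, the macrophage growth factor M-CSF, 38.7% and 44.9%, *Il1r2* 32.6% and 50.1%, *Ptgs2*, the inducible COX-2 of the host cells, 24.2% and 31.6%, and *Il1b* 20.2% and 25.1%. These shares are to be read against 1.40% and 2.32% of all UMIs, and against a larger number of neutrophils in the NK-depleted library. Genes with fewer UMIs were also concentrated there. *Il1f9*, a cytokine of the IL-36 family, had 64.8% and 74.6% of its UMIs in neutrophils, *Arg2*, the mitochondrial arginase, 40.0% and 48.7%, *Hcar2*, a receptor for ketone bodies and niacin, 28.3% and 40.6%, and *Ltb*, which encodes lymphotoxin-β, 15.4% and 31.4%. *Il23a*, a subunit of IL-23, had 20 of 60 and 24 of 51 UMIs in them. *Cxcl3* had 14.7% and 24.3% of its UMIs in neutrophils, *Osm*, a cytokine of the IL-6 family, 12.3% and 11.7%, and *Cxcl2* 6.70% and 8.23%. *Ccl3* was at 4.22% and 6.01%, above the share of all UMIs in both libraries. *Ccl4* was at 2.00% (1.81 to 2.22) and 2.29%, and *Cxcl10* at 2.41% (1.88 to 3.02) and 2.44%. Both were above the share of all UMIs in control and near it in the NK-depleted library. The monocyte attractant *Ccl2* was under it, at 0.103% and 0.0848%. For *Il6*, 0 of 553 and 0 of 750 UMIs lay in neutrophils, which allows up to 0.665% and 0.491% (Clopper-Pearson).

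**Figure D2:**
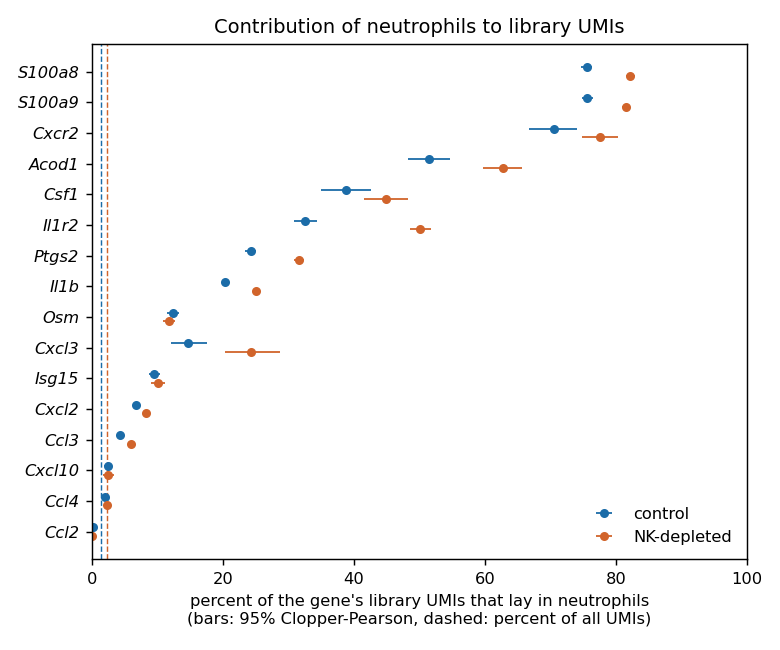
Percent of each gene's UMIs in a library that lay in neutrophils (x axis), for 16 genes (y axis) in the control and NK-depleted libraries, 1 library each, with bars for the 95% Clopper-Pearson interval and dashed lines for the percent of all UMIs in neutrophils, 1.40% and 2.32%. *S100a8*, *S100a9* and *Cxcr2*, which the rule used, stand highest, *Acod1* is at 51.5% and 62.7%, and *Ccl2* is close to 0.

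Set beside monocytes of the same libraries (672 and 1096 cells with *Ly6c2*, *Ccr2* and *Csf1r* UMIs), neutrophils had 16.1 times the *Il1b* level in control (15.6 to 16.6) and 12.6 times in NK-depleted hosts (12.3 to 12.9). The level of *Il1r2* was 118 times (94.8 to 149) and 122 times (106 to 142) that of monocytes. For *Osm* the folds were 6.69 and 4.81, and for *Cxcl2* 5.40 and 4.21. Among interferon-stimulated genes, *Rsad2* was 3.95 and 3.21 times and *Isg15* 2.63 and 2.47 times the monocyte level, while *Cxcl10* was at 0.640 (0.496 to 0.813) and 0.712 (0.494 to 0.997) of it. Eosinophils, the other granulocyte looked for, numbered 2 and 15 cells and were not compared.

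The second comparison asked how neutrophil transcripts differed between hosts with and without NK cells. UMIs were summed over the neutrophils of a library and divided by their total. A ratio is control over NK-depleted, and its log2 has 0.5 UMI added to each sum. *Il1b* alone made up 2.69% and 2.47% of all neutrophil UMIs. Most transcripts were near equal. Among 2486 genes with 50 or more UMIs over both libraries, 29 were 2-fold or more higher in control (1.17%) and 26 were 2-fold or more lower (1.05%). Among the 4348 genes with 20 or more UMIs, the minimum used for gene lists, these shares were 2.60% and 3.82%, the median log2 ratio was -0.04, and 2038 genes were above 0. The counting interval of the ratio lay above 1 for 274 of them (6.30%) and below 1 for 353 (8.12%). Of the transcripts the rule used, *S100a8* had 7942 and 10751 UMIs and a ratio of 1.15, and the 8 rule genes together had a median log2 ratio of -0.07.

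**Figure D3:**
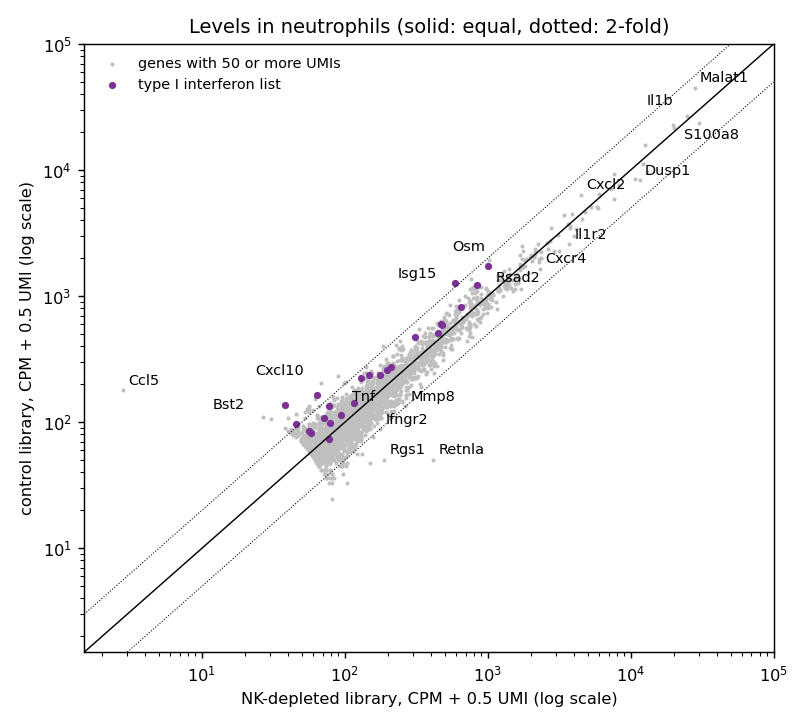
Level of each gene with 50 or more UMIs in neutrophils, in CPM with 0.5 UMI added, in the NK-depleted library (x axis, log scale) against the control library (y axis, log scale), 1 point per gene, with the type I interferon list in purple. The solid line marks equal levels and dotted lines a 2-fold difference. *Isg15*, *Rsad2*, *Osm* and *Cxcl10* lie above the solid line, *Mmp8* and *Ifngr2* below it, and *Ccl5* and *Retnla*, far from the line, each rest mostly on 1 cell.

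Type I interferon-stimulated genes were higher in control neutrophils. Of the 37 genes of the list, 33 had 20 or more UMIs, 31 of them were above 0 on the log2 scale and 2 below, 7 were 2-fold or more higher and 0 were 2-fold or more lower, and the median log2 ratio was 0.59. For 17 genes the counting interval of the ratio lay above 1, and for 0 genes below 1. *Isg15* gave 441 UMIs in 281 control neutrophils and 320 UMIs in 387 NK-depleted neutrophils, levels of 1269.9 and 593 CPM, with a ratio of 2.14 (1.85 to 2.48). *Rsad2* gave 603 and 542 UMIs, 1736 and 1005 CPM, with a ratio of 1.73 (1.54 to 1.94). The counting intervals of both lay above 1, but they leave out the spread between cells. In each library 5 cells held 34.3% and 34.5% of the *Rsad2* UMIs, and 18.1% and 19.4% of those of *Isg15*. *Ifit3* gave 47 and 20 UMIs with a ratio of 3.65 (2.12 to 6.50), and reads of its near-identical copy *Ifit3b* (24 and 13 UMIs) may be split between them. *Ddx58*, which encodes the RNA sensor RIG-I, gave 57 and 34 UMIs (2.60, 1.67 to 4.11), and *Usp18*, which removes ISG15 from proteins, 33 and 24 UMIs (2.14, 1.22 to 3.78). *Ifi209*, with 22 and 6 UMIs, was highest in the list at 5.70 (2.24 to 17.2), and *Eif2ak2*, the double-stranded RNA kinase PKR, had 18 and 11 UMIs (2.54, 1.14 to 5.96). Genes with more UMIs and smaller ratios followed, such as *Ifi27l2a* at 427 and 451 UMIs (1.47, 1.29 to 1.68), *Ifitm3*, which blocks viral entry, at 284 and 348 UMIs (1.27, 1.08 to 1.49) and *Slfn4* at 210 and 254 UMIs (1.28, 1.06 to 1.55). *Irf9* and *Dhx58* were the 2 genes below 0, at ratios of 0.947 (0.552 to 1.60) and 0.888 (0.323 to 2.27).

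**Figure D4:**
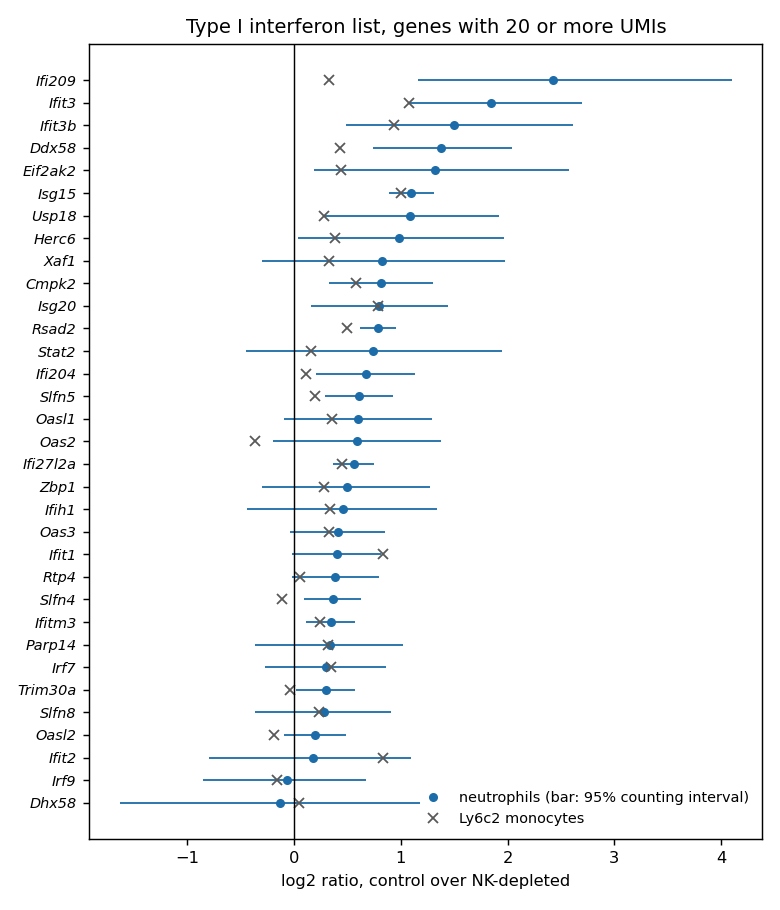
Log2 ratio of control over NK-depleted (x axis) for the 33 type I interferon genes with 20 or more UMIs in neutrophils (y axis), points with 95% counting intervals as bars, and crosses for monocytes of the same libraries. Points run from *Ifi209* at the top to *Dhx58* at the bottom, 31 of 33 lie right of 0, and most crosses lie closer to 0 than the points.

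The difference was not seen in neutrophils alone. The same list had a median log2 ratio of 0.33 in monocytes, with 32 of 37 genes above 0, of 0.58 in T and B cells, with 30 of 31 above 0, and of -0.05 in all cells that were not neutrophils. In the same T and B cells, macrophage markers had a median log2 ratio of 1.63, with 11 of 12 genes above 0, and NK cell markers one of 2.03, with 7 of 7 above 0, and their part in the value for T and B cells was not tested. The interaction between cell type and host was not tested, since each group was 1 library. Without neutrophils holding a UMI of *C1qa*, *C1qb*, *C1qc*, *Apoe* or *Cd74*, which left 199 and 298 cells, the median of the list in neutrophils was 0.41, and with exclusion genes allowed it was 0.32. T and B cells held such transcripts in a smaller share of cells. A UMI of *Isg15* was found in 43.8% and 34.4% of neutrophils and in 11.3% and 7.94% of T and B cells, and one of *Rsad2* in 27.8% and 24.5% against 11.3% and 5.82%. Neutrophils were above these cells in both libraries at a lower depth. *Cxcl10* differed, since it was seen in 3.91% and 1.81% of neutrophils but in 7.30% and 3.70% of T and B cells. The share of neutrophils with a UMI of it was thus not above that of T and B cells.

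*Cxcl10* was nevertheless among the largest ratios, with 71 and 36 UMIs, 204 and 66.7 CPM, and a ratio of 3.06 (2.02 to 4.71). These UMIs lay in few cells, and the 5 richest held 76.1% and 94.4% of the sums. A single control cell of 1294 UMIs, with 0 UMIs of *Cd74*, held 30 of them, and 2 NK-depleted cells held 10 or more, so the ratio rests on these few cells. The remaining CXCR3 ligand of the list, *Cxcl9*, had 2 and 0 UMIs, too few for a fold.

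Genes of the IFN-γ list, some of which (such as *Bst2*) also respond to type I interferons, were less uniform. Of 40 genes, 26 had 20 or more UMIs, 19 were above 0 and 7 below, 4 were 2-fold or more higher and 0 lower, and the median log2 ratio was 0.37. In monocytes the median was 0.33, with 34 of 39 genes above 0. It was 0.38 in T and B cells (28 of 34) and 0.13 in all cells that were not neutrophils (27 of 39). Summed per neutrophil at 1000 UMIs, the list had a median of 7 UMIs in control and 8 in NK-depleted neutrophils and means of 8.38 and 8.34. This sum was not higher in control, but it weighs genes by their UMIs. The list holds the abundant *B2m*, *H2-K1* and *H2-D1*, given below, and the sum without them was not taken. *Gbp2*, a guanylate-binding protein of cell-autonomous defense, had 53 and 33 UMIs (2.49, 1.59 to 3.98). *Psmb9* and *Psmb8*, subunits of the immunoproteasome, had 40 and 24 UMIs (2.59, 1.52 to 4.49) and 49 and 42 UMIs (1.81, 1.18 to 2.80). *Bst2*, which tethers budding viruses, had 38 and 14 UMIs (4.22, 2.23 to 8.42). The peptide-loading gene *Tap1*, with 54 UMIs in each library, had a ratio of 1.55 (1.05 to 2.31). The genes of the class I molecule itself were lower in control or near even. *B2m* gave 787 and 1691 UMIs, 2266 and 3135 CPM, with a ratio of 0.723 (0.663 to 0.787), *H2-K1* 397 and 831 UMIs with 0.742 (0.657 to 0.837), and *H2-D1* 594 and 953 UMIs with 0.968 (0.872 to 1.07). Within the list of the class I pathway, 8 of 13 genes were above 0 and 5 below, at a median of 0.49 that was 0.04 without cells holding macrophage transcripts and 0.07 without cells above 2000 UMIs. *Ifngr2*, a chain of the IFN-γ receptor, was 2-fold or more lower in control, at 30 and 95 UMIs (0.491, 0.314 to 0.746), whereas *Ifngr1* had 76 and 123 UMIs (0.960, 0.711 to 1.29) and the type I receptor gene *Ifnar1* 39 and 64 UMIs (0.947, 0.619 to 1.43).

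The interferon transcripts were unevenly spread over cells. To compare cells at equal depth, neutrophils with 1000 or more UMIs (211 control and 325 NK-depleted) were thinned to 1000 UMIs each. Control neutrophils then held a median of 5 UMIs of the type I list and NK-depleted neutrophils 3, with the cell at the 90th percentile at 33 and 13.6 and the highest cell at 103 and 129. The libraries thus overlapped over the whole range and differed most in the upper part. A value of 10 or more was reached by 68 of 211 control cells, 32.2% (26.0 to 39.0), and 54 of 325 NK-depleted cells, 16.6% (12.7 to 21.1). This value is a point on a continuous range, with 22 and 37 cells between 8 and 11. Cells at or above it held 95.7% and 83.5% of all thinned *Rsad2* UMIs and 85.3% and 52.2% of *Isg15*, as follows in part from the choice, since both genes are in the list. *Cxcl10*, which is not in the list, had 47 of 57 and 11 of 15 thinned UMIs in them. They held 33.4% and 16.2% of *Il1b*, 29.7% and 8.04% of *Cxcl2* and 12.9% and 7.63% of *Ccl3*, against 32.2% and 16.6% of the cells.

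**Figure D5:**
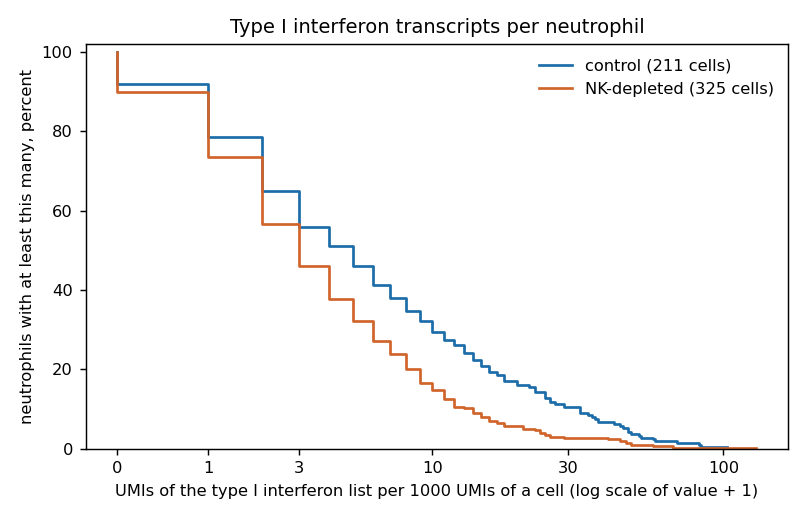
Percent of neutrophils (y axis) with at least a given number of type I interferon UMIs per 1000 UMIs of the cell (x axis, log scale of the value plus 1), for 211 control and 325 NK-depleted neutrophils thinned to 1000 UMIs. The curves start together and separate, and at 10 UMIs they stand at 32.2% and 16.6%.

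Among chemokines and cytokines, 20 of 26 genes had 20 or more UMIs, 17 were above 0 and 3 below, 4 were 2-fold or more higher in control and 0 lower, and the median log2 ratio was 0.37. *Osm* gave 674 and 548 UMIs, 1941 and 1016 CPM, with a ratio of 1.91 (1.70 to 2.14). *Cxcl2*, a ligand of CXCR2, gave 2211 and 2410 UMIs, 6367 and 4468 CPM, with a ratio of 1.43 (1.34 to 1.51). *Il1b* was almost the same in both, with 9346 and 13331 UMIs, 26912 and 24713 CPM, and a ratio of 1.09 (1.06 to 1.12). It was seen in 100% and 99.2% of neutrophils (10.6% and 10.1% of T and B cells), and in thinned cells its median was 28 and 26 UMIs. *Il1rn*, the IL-1 receptor antagonist, gave 336 and 391 UMIs (1.33, 1.15 to 1.55), and *Cxcl3* 97 and 101 UMIs (1.49, 1.12 to 1.99), a ratio that turned below 1 without cells holding macrophage transcripts. *Tnf* gave 70 and 53 UMIs (2.05, 1.42 to 2.99), of which 60.0% and 32.1% lay in 5 cells, and without those cells its log2 ratio went from 1.03 to 0.26. *Ccl3* (313 and 399 UMIs, 1.22) and *Ccl4* (365 and 442 UMIs, 1.28) depended on the rule, with log2 ratios of -0.21 and -0.55 when 3 of the other genes were required. *Il1a*, the remaining gene with a 2-fold difference, had only 17 and 12 UMIs (2.20, 0.990 to 5.05). *Ccl5* had 62 UMIs and 1 UMI, a ratio of 96.3 (16.7 to 3864), with 52 of the 62 UMIs in 1 cell that also had 12 UMIs of *Cd74*. *Vegfa*, the angiogenic factor, gave 108 and 131 UMIs (1.28, 0.983 to 1.66).

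Surface receptors had a median near that of all genes, but their counting intervals lay below 1 more often. Of 33 surface receptor genes, 31 had 20 or more UMIs, 13 were above 0 and 18 below, 0 were 2-fold higher and 1 was 2-fold lower, with a median log2 ratio of -0.06. The counting interval lay below 1 for 9 of the 31 genes and above 1 for 0, against 8.12% and 6.30% of all 4348 genes. Genes with more UMIs have narrower intervals, and the compared genes were not matched for UMIs. In monocytes the list had a median of -0.19, with the interval below 1 for 17 of 33 genes and above 1 for 6. All cells that were not neutrophils had -0.07, with 18 and 8 of 33. T and B cells had 0.15, with 2 and 3 of 24. *Il1r2* gave 898 and 2002 UMIs, 2586 and 3711 CPM, with a ratio of 0.697 (0.643 to 0.754). Its log2 ratio was -0.52, against -0.47 in monocytes and -0.21 in all cells that were not neutrophils. *Cxcr4*, which holds neutrophils in the marrow and rises as they age, gave 572 and 1246 UMIs, 1647 and 2310 CPM, with a ratio of 0.713 (0.645 to 0.788). At equal depth a UMI of *Cxcr4* was in 71.1% (64.5 to 77.1) of control and 79.4% (74.6 to 83.7) of NK-depleted cells, and in 74.7% and 84.0% before thinning. *Cxcr4* was also lower in control in monocytes (293 and 427 CPM) and in all cells that were not neutrophils (360 and 448 CPM). The formyl peptide receptors *Fpr1* and *Fpr2* had 30 and 80 UMIs (0.582, 0.370 to 0.896) and 98 and 210 UMIs (0.725, 0.564 to 0.926). *Tnfrsf1b* (135 and 291 UMIs, 0.721) and *Itgam*, the integrin chain CD11b (161 and 337 UMIs, 0.742), were lower in control by a like amount. The prostaglandin E2 receptor genes *Ptger2* and *Ptger4* had 2 and 2 and 6 and 11 UMIs.

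Of the gelatinase granule and secretory vesicle list, 6 of 8 genes had 20 or more UMIs, 5 were below 0 and 1 above, and the median log2 ratio was -0.41. *Mmp8*, the neutrophil collagenase, gave 46 and 142 UMIs, 132 and 263 CPM, with a ratio of 0.503 (0.353 to 0.706), just short of a 2-fold difference. Control neutrophils held 6.72% (4.96 to 8.86) of the *Mmp8* UMIs of their library and NK-depleted neutrophils 22.2% (19.0 to 25.6). The log2 ratio of *Mmp8* was -0.98 in neutrophils, -0.97 in monocytes and 0.25 in all cells that were not neutrophils. The specific granule genes were a separate list, in which *Mmp8* was not placed. Of that list, *Lcn2* had 77 and 167 UMIs (0.716, 0.539 to 0.944) and *Cd177*, a surface glycoprotein, 10 and 11 UMIs (1.41, 0.538 to 3.66). *Ltf* (7 and 5), *Camp* (0 and 4) and *Ngp* (3 and 15) were too low to compare. The 11 measured genes of circulating neutrophils had a median of -0.05, with 4 above 0, and the 15 of tumor-activated neutrophils a median of 0.29, with 10 above 0. The second median was 0.02 when 20 calprotectin UMIs were required. The tumor-activated list had a median of 0.59 in monocytes, with 9 of 14 genes above 0. It was 0.29 in T and B cells (6 of 8) and 0.14 in all cells that were not neutrophils (10 of 15). *Siglecf*, reported on long-lived tumor neutrophils, gave 13 and 24 UMIs (0.841, 0.393 to 1.72), and *Cd274*, which encodes PD-L1, 42 and 46 UMIs (1.42, 0.911 to 2.20), so no difference was detectable at this depth.

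Immediate early and heat shock genes had 6 of 18 above 0 at a median of -0.12. The counting interval lay below 1 for 6 genes and above 1 for 1, against 8.12% and 6.30% of all genes. In all cells that were not neutrophils the median was -0.26, with the interval below 1 for 14 of 19 genes and above 1 for 2. Monocytes had -0.06, with 9 and 7 of 19, and T and B cells 0.008, with 8 and 2 of 19. At 1000 UMIs per cell these genes summed to a median of 42 UMIs in control and 48 in NK-depleted neutrophils. *Dusp1*, a phosphatase that ends MAP kinase signals, gave 2873 and 6230 UMIs (0.716, 0.685 to 0.749) and *Junb* 2959 and 5756 UMIs (0.799, 0.764 to 0.835), whereas *Fos* was near even at 2452 and 3919 UMIs (0.972, 0.924 to 1.02). In cells that were not neutrophils, the log2 ratios of *Dusp1* and *Junb* were -0.67 and -0.57, against -0.48 and -0.32 in neutrophils. NF-κB feedback genes had a median of -0.15, with *Tnfaip3*, which encodes the inhibitor A20, at 202 and 443 UMIs (0.708, 0.597 to 0.838) and *Ier3* at 863 and 935 UMIs (1.43, 1.31 to 1.57). The medians were 0.15 for 25 hypoxia and glycolysis genes, -0.03 for 13 NADPH oxidase and antioxidant genes, -0.13 for 9 eicosanoid genes, -0.07 for 10 suppressor genes and 0.04 for 17 transcription factors. Within them, *Cybb*, the catalytic chain of the NADPH oxidase, had 19 and 65 UMIs (0.454, 0.257 to 0.767), while its partner *Ncf1* was even (318 and 504 UMIs, 0.980). Of the *Cybb* UMIs, 52.6% and 64.6% lay in 5 cells. *Cebpb*, a transcription factor of emergency granulopoiesis, gave 2036 and 4143 UMIs (0.763, 0.724 to 0.805), and *Spi1*, the myeloid factor PU.1, 190 and 388 UMIs (0.761, 0.636 to 0.907). Among hypoxia genes, *Hilpda*, a lipid droplet protein, had 77 and 78 UMIs (1.53, with an interval above 1) and the glucose transporter gene *Slc2a3* 106 and 212 UMIs (0.777, 0.609 to 0.985). Among suppressor genes, *Acod1* had 507 and 636 UMIs (1.24, with an interval above 1) and *Arg2* 78 and 164 UMIs (0.739, 0.557 to 0.973), while *Arg1* (7 and 2) and *Nos2* (1 and 0) were hardly detected.

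Apoptosis regulators had 10 of 16 genes above 0 at a median of 0.11, and 3 were 2-fold or more higher in control. These were the survival genes *Bcl2a1b*, at 138 and 99 UMIs (2.17, 1.66 to 2.83), *Bcl2a1d*, at 20 and 15 UMIs (2.07, 1.01 to 4.35), and *Bcl2l1*, at 46 and 35 UMIs (2.04, 1.29 to 3.26). Copies of *Bcl2a1* are near-identical, so the split of reads among them is uncertain. The log2 ratio of *Bcl2a1b* was 1.11 in neutrophils and 1.04 in the other cells, and that of *Bcl2l1* 1.02 and 0.11. *Mcl1*, the survival factor on which neutrophils chiefly depend, was near even with 1200 and 2029 UMIs (0.919, 0.855 to 0.987). Respiratory chain genes were higher in control in 38 of 44 cases, with a median log2 ratio of 0.44, 1 gene 2-fold or more higher and 0 lower. *Cox6c* had 85 and 73 UMIs (1.81, 1.31 to 2.51) and *Atp5j2* 55 and 44 UMIs (1.94, 1.28 to 2.96), and *Ndufb10* was the gene past 2-fold, with 23 and 17 UMIs (2.10, 1.07 to 4.19). This list was also above 0 in monocytes (0.32), in T and B cells (0.36) and in all cells that were not neutrophils (0.26).

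By size alone, genes with 100 or more UMIs were ranked by the interval bound nearest to 1. The 12 highest in control were *Cxcl10*, *Isg15*, *Tmsb10*, *Osm*, *Bcl2a1b*, *Cst3*, *Malat1*, *Rsad2*, *Naaa*, *Rrbp1*, *Tnf* and *Cxcl2*. *Malat1*, a nuclear RNA, gave 15597 and 15106 UMIs (1.60, 1.57 to 1.64) and was higher by a like log2 ratio in the other cells, 0.68 in neutrophils and 0.76 elsewhere. *Tmsb10* is set apart, since its level in control neutrophils was 17.2% of that in the other cells. *Cst3*, the protease inhibitor cystatin C, gave 476 and 408 UMIs (1.81, 1.58 to 2.07), and *Naaa*, a lysosomal amidase, 72 and 54 UMIs (2.07). The 5 richest control cells held 36.6% of the *Cst3* and 56.9% of the *Naaa* UMIs. The 12 lowest were *Retnla*, *Rgs1*, *Mmp8*, *Lyz2*, *Pde4b*, *Lmo4*, *Eprs*, *Nadk*, *Ifngr2*, *Dusp1*, *Csrnp1* and *Il1r2*. *Pde4b*, which breaks down cAMP, gave 152 and 388 UMIs (0.609, 0.501 to 0.736) and *Nadk*, which makes NADP, 66 and 183 UMIs (0.560, 0.416 to 0.746). Their log2 ratios were -0.71 and -0.83 in neutrophils, -0.71 and -0.61 in monocytes, and -0.61 and -0.80 in the other cells. *Lyz2*, at 15.8% of the level of other NK-depleted cells, is set apart. *Retnla*, a product of alternatively activated macrophages, had 17 and 223 UMIs, but 207 of the 223 lay in 1 cell with 10200 UMIs and 19 UMIs of *Cd74*. The same cell held 55 of the 101 *Rgs1* UMIs of the NK-depleted library, against 17 in control. Without cells holding macrophage transcripts (*C1qa*, *C1qb*, *C1qc*, *Apoe* or *Cd74*), the log2 ratios of *Retnla* and *Rgs1* turned from -3.04 to 0.42 and from -1.90 to 0.42.

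Within a library, neutrophils differed from one another in a few programs. At 1000 UMIs per cell, the 15 genes with the highest variance over mean in both libraries were *Gm42418*, *S100a8*, *S100a9*, *Ccl4*, *Rsad2*, *Cxcl2*, *Fth1*, *Gm5483*, *Retnlg*, *Ccl3*, *Cxcl3*, *Nfkbia*, *G0s2*, *Malat1* and *Thbs1*. *Gm42418* overlaps ribosomal RNA and *Gm5483* is a stefin A-like gene. The 21 and 32 cells richest in *Ccl4*, of 211 and 325, held 93.6% and 96.8% of its UMIs, and the same number of cells richest in *Rsad2* held 78.5% and 84.1%. For *Il1b* the share was 16.8% and 17.8%, with a median of 28 and 26 UMIs and 56 and 59 UMIs in the highest cell. *Ccl3* and *Ccl4* were seen together in 17 and 22 cells, 47.2% and 33.8% of the cells with *Ccl3* and 48.6% and 53.7% of those with *Ccl4*.

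Cells with more and with less calprotectin RNA are described next, with no test. *S100a8* and *S100a9* also chose the cells, most genes shown were picked for their difference after the values were seen, and at a fixed total of UMIs a larger calprotectin part leaves less for every other gene. Thinned cells were ranked by *S100a8* plus *S100a9* and split into terciles of 70 and 108 cells, the highest tercile starting at 49 and 44 UMIs and the lowest ending at 18 and 20. *Gm5483* had 94 and 3 UMIs in the highest and lowest tercile of control and 138 and 16 in NK-depleted cells. *Retnlg*, which the rule used, had 233 and 30 against 257 and 52, and *Wfdc21*, which it did not use, 30 and 7 against 66 and 9. Granule genes were on the same side, *Lcn2* with 33 and 9 against 58 and 20, and *Mmp8* with 19 and 3 against 49 and 16. Fewer UMIs in the highest tercile were found for *Ptma*, a chromatin protein of active cells (7 and 33, then 12 and 66), for the chaperone gene *Hsp90aa1* (10 and 30, then 11 and 43) and for *Thbs1*, which encodes thrombospondin (161 and 326, then 287 and 413). *Il1b* (1863 and 2040, then 2721 and 2824) and *Cxcr4* (113 and 135, then 265 and 282) differed little between terciles. *Ccl4* went opposite ways, with 34 UMIs in the highest and 98 in the lowest tercile of control and 93 and 40 in NK-depleted cells. *Rsad2* had 114 UMIs in the highest and 41 in the lowest tercile of NK-depleted cells, and 110 and 104 in control.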

How the data were processed

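The authors sorted live CD45+ cells, prepared libraries with a droplet kit that captures 3′ ends, and deposited a matrix of UMI counts per gene and cell for each of the 2 samples. The file headers name Cell Ranger 3.0.2, the submitters' processing notes also bcl2fastq and the build mm10. A table of normalized values for the same cells was not used here. The counts were used as deposited. The filter of the study's methods was applied, which asks for between 500 and 15000 UMIs, between 200 and 4000 genes and no more than 10% of UMIs from mitochondrial genes. The libraries kept 5292 of 6115 and 4506 of 5536 called cells and shared 7 barcodes, of which 0 were neutrophils.

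The neutrophil rule, its genes and the gene lists were chosen with earlier results of these data known. No cell annotation was used, so cell types were rebuilt here and can differ from those of the study for that reason. Counts were summed over neutrophils per library. With 1 library per group no test was run. Sums have exact Poisson, ratios exact conditional binomial and shares exact Clopper-Pearson 95% intervals. A count of 0 was read as up to 3 counts. "2-fold" calls need 50 or more UMIs over both libraries, lists 20 or more. Genes named by size were the 12 highest and 12 lowest with 100 or more UMIs, without mitochondrial and ribosomal protein genes, and those under 20% of the level in other cells were set apart. The other genes named came from the rule, the lists and the 15 most variable genes, and *Ccl5*, *Retnla*'s richest cell and *Cybb*'s richest cells were singled out after their values were seen. T and B cells, monocytes and eosinophils were defined by 2 or more marker transcripts or genes. Thinning drew 1000 UMIs per cell without replacement, leaving out 70 and 62 shallower neutrophils. Scrublet (scanpy 1.11.5, expected rate 5%) called 41 control (0.775%) and 31 NK-depleted cells (0.688%) as doublets, of which 3 and 4 were neutrophils. These were kept, and removal of doublets before deposit is not given in the sources used here. Promoters came from a RefSeq table of GRCm38.p6, and symbols without an entry were left out. Alternatives changed the rule, the filter, the scaling, the weighting, the depth and the minimum count. Leaving *Malat1* out of the scaling and keeping only neutrophils with 2000 or fewer UMIs were added after seeing the data. Scripts ran in Python 3.11.15 with numpy 2.4.6 and scipy 1.17.1, and the ratios and intervals were tested on simulated data.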

Additional observations from a re-analysis of the deposited data

Results flagged for a closer look

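Some genes had a ratio above 1 in one cell type and below 1 in the other when control was set against NK-depleted hosts. The difference between the cell types was not tested, with 1 library per group. *Retnla* had a log2 ratio of -3.04 in neutrophils and 1.80 in monocytes, where it had 1078 and 516 UMIs, and *Rgs1* -1.90 and 0.28. Both neutrophil values rest largely on 1 NK-depleted cell. *Il1b* had 0.12 in neutrophils and -0.23 in monocytes (6653 and 13014 UMIs). *Cxcl3* had 0.58 in neutrophils and -1.13 in monocytes, where it gave 10 and 38 UMIs. Its ratio in neutrophils turned below 1 without cells holding macrophage transcripts, so the opposite direction depended on those cells. In thinned neutrophils it was seen in only 14 of 211 control and 25 of 325 NK-depleted cells.

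Cells outside the filter, which no comparison used, also met the neutrophil rule, 5 in the control and 8 in the NK-depleted library. The 5 control cells had 11.8% to 18.7% mitochondrial UMIs and 11 to 42 UMIs of *Il1b*. The 8 NK-depleted cells had 5.02% to 15.4% mitochondrial UMIs and 24 to 70 UMIs of *Il1b*, and 1 of them exceeded the upper limits with 34871 UMIs.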

How the results depend on the processing

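The ratio of neutrophil shares stayed below 1 under every setting tried (0.555 to 0.692). The shares themselves were 3.68% in control and 6.35% in NK-depleted cells with 20 or more calprotectin UMIs, 6.44% and 9.92% with the exclusion genes allowed, 4.68% and 7.14% without a cell filter, 6.28% and 11.1% with a 5% mitochondrial limit, and 4.31% and 7.76% with all cells thinned. Genes 2-fold or more higher and lower numbered 29 and 26. The higher count became 55 with exclusion genes allowed, 14 without cells holding macrophage transcripts, and 113 or 2 at a minimum of 20 or 200 UMIs. The lower count became 44 without upper limits, 13 when thinned, 17 without cells holding macrophage transcripts, 16 with 2000 or fewer UMIs, and 166 or 1 at a minimum of 20 or 200 UMIs. Fewer genes or cells enter several of these settings, but 2 of them add cells. Leaving out the upper limits kept 281 control neutrophils and added 1 NK-depleted cell, of 34871 UMIs, for 388 in place of 387. The change of the lower count in that setting thus rests on this cell. Allowing exclusion genes gave 341 and 447 neutrophils. Causes of the other changes were not tested. Of 45 named genes, 36 kept their sign under every setting and 9 did not. *Retnla* turned to 0.42 without cells holding macrophage transcripts, 0.81 with 2000 or fewer UMIs and 0.73 without its 5 richest cells, and *Rgs1* to 0.68 with exclusion genes allowed and 0.42 without cells holding macrophage transcripts.

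The median of the type I interferon list ran from 0.32, with exclusion genes allowed, to 0.73, when thinned. That of the IFN-γ list ran from 0.23 to 0.46, of the respiratory chain from 0.26 to 0.48, of chemokines and cytokines from 0.28 to 0.46, and of the gelatinase list from -0.49 to -0.25. No paired analysis was possible because each group was 1 library. The spread between tumors or hosts is unknown, genes under 20 UMIs could not be compared, and neutrophils lost at sorting, encapsulation or the filter were not seen.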
